A study of Mus musculus with 15 samples.

Results

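Fibrotic lung was set directly against fibrotic kidney in whole-organ RNA of BALB/c mice, with 5 of the 14 samples of the series. The groups were taken from the sample titles: 3 lungs of mice given bleomycin into the trachea (called fibrotic lungs 1 to 3 in the order of their titles) and 2 kidneys of mice after unilateral ureteral obstruction surgery, the tying off of 1 ureter (called fibrotic kidneys 1 and 2). The 3 healthy lungs and 3 healthy kidneys of untreated mice of the same strain gave the organ difference without injury, and 3 lungs of mice after the ureteral surgery, 1 of them from the mouse of fibrotic kidney 2, took part only in the shared estimate of the spread. The labels give no age, sex or time after injury, and they do not say whether the obstructed or the opposite kidney was taken. Each label names an animal, no animal gave both a fibrotic lung and a fibrotic kidney, and the 6 healthy organs came from 3 mice. The series title concerns claudins, the sealing proteins of tight junctions, and how vessels vary from organ to organ, and the question here is which genes still separate the organs once both are scarred and which reach like levels.

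Bleomycin breaks DNA in the alveolar lining and is followed by inflammation and by fibroblasts that lay down collagen between the air spaces. Ureteral obstruction raises the pressure in the nephron, injures tubule cells and is followed by a scar between the tubules. In both organs transforming growth factor beta, TGF-beta, drives fibroblasts to become contractile myofibroblasts that secrete fibrillar collagen, fibronectin and crosslinking enzymes, while neutrophils, macrophages and lymphocytes enter the tissue.

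Before the comparison, several libraries need to be described. Total signal differed, with mean raw intensities of 508 to 527 in the fibrotic lungs and 374 to 449 in the fibrotic kidneys, and between samples of the same group the Pearson correlation across genes was 0.9784 to 0.9854 for the lungs and 0.9565 for the kidneys. Genes across 1 pair of arrays are not independent replicates, and between the organs the same correlation was 0.7701 to 0.8442. Transcripts of the lung gene lists were present in both fibrotic kidneys: 15 of 18 alveolar type 2 genes were above background in each, against 9 to 10 in the healthy kidneys, and 9 of 16 airway genes against 4 to 6. Not all of these define lung, since the alveolar type 2 members Napsa and Cd74 were called higher in fibrotic kidney. Transcripts of kidney were present in fibrotic lung 1, where 20 of 32 proximal tubule genes were above background, against 13 and 12 in fibrotic lungs 2 and 3. The Y-linked gene Eif2s3y was above background in fibrotic lungs 1 and 2 and in all 6 healthy samples but in neither fibrotic kidney, whereas Xist, the RNA of the inactive X chromosome, had log2 levels of 5.52, 4.35 and 8.91 in the lungs and 10.72 and 10.44 in the kidneys. Sex and fibrosis therefore cannot be told apart in the kidney, and counts are also given without fibrotic lungs 1 and 2. In whole-organ RNA, fewer cells of a type and less RNA per cell cannot be told apart.

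Many genes differed between the scarred organs. Of 11651 genes tested, 5616 (48.2%) passed an adjusted p of 0.05, 2711 (23.3%) with the higher level in fibrotic lung and 2905 (24.9%) with the higher level in fibrotic kidney. Differences are in log2 units, lung minus kidney, with the standard error (SE) after ±, so a negative value means the higher level in kidney. The share of calls on the lung side was 48.3%, but it was 65% when arrays were scaled by their medians and 76.1% with the authors' deposited matrix values, which moved the median difference of all genes from -0.01 to 0.19 and 0.41 (log2). Without fibrotic lungs 1 and 2, the fibrotic lungs with Eif2s3y above background, 1765 genes were called higher in lung and 1982 higher in kidney. A like level was a separate call: the 95% interval of the difference had to lie within 2-fold either way, with the probe above background in all 5 samples, and 4640 genes (39.8%, or 50.1% of the 9268 above background throughout) met it. Of these, 820 also passed the test with a small difference. The samples of the organs did not overlap for 63.9% of all genes.

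Fewer genes were called between the scarred organs than between the healthy ones, with 2 fibrotic against 3 healthy kidneys behind the counts. Between healthy lung and healthy kidney 7762 genes (66.6%) were called, 36.8% of all genes higher in lung and 29.8% higher in kidney. Of the 7762, 3415 (44%) were called the same way between the fibrotic organs, 2966 (38.2%) were at like levels there and 791 (10.2%) were called the opposite way. The median size of the difference over all genes was 0.79 in healthy and 0.56 in fibrotic organs (log2). The change of the organ difference itself, fibrotic minus healthy, passed for 5239 genes (45%): it narrowed, called in the healthy organs and smaller in size in the fibrotic ones, for 3678 (31.6%), and widened, called in the fibrotic organs and larger there, for 1440 (12.4%), whether or not its sign turned. The remaining 121 met neither definition. A probe at background in 1 or more groups lay behind 634 of the narrowed and 239 of the widened genes, and for these the size of the change is not exact. The plot of shares by list sets each gene list against all genes tested. For the list counts that follow, the shares of all genes were 23.3% called higher in fibrotic lung, 24.9% called higher in fibrotic kidney and 39.8% at like levels. Under each of 5 scalings and background corrections, the main one included, 2527 of the 11651 genes were called higher in lung and 1544 higher in kidney.

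**Figure D1:**
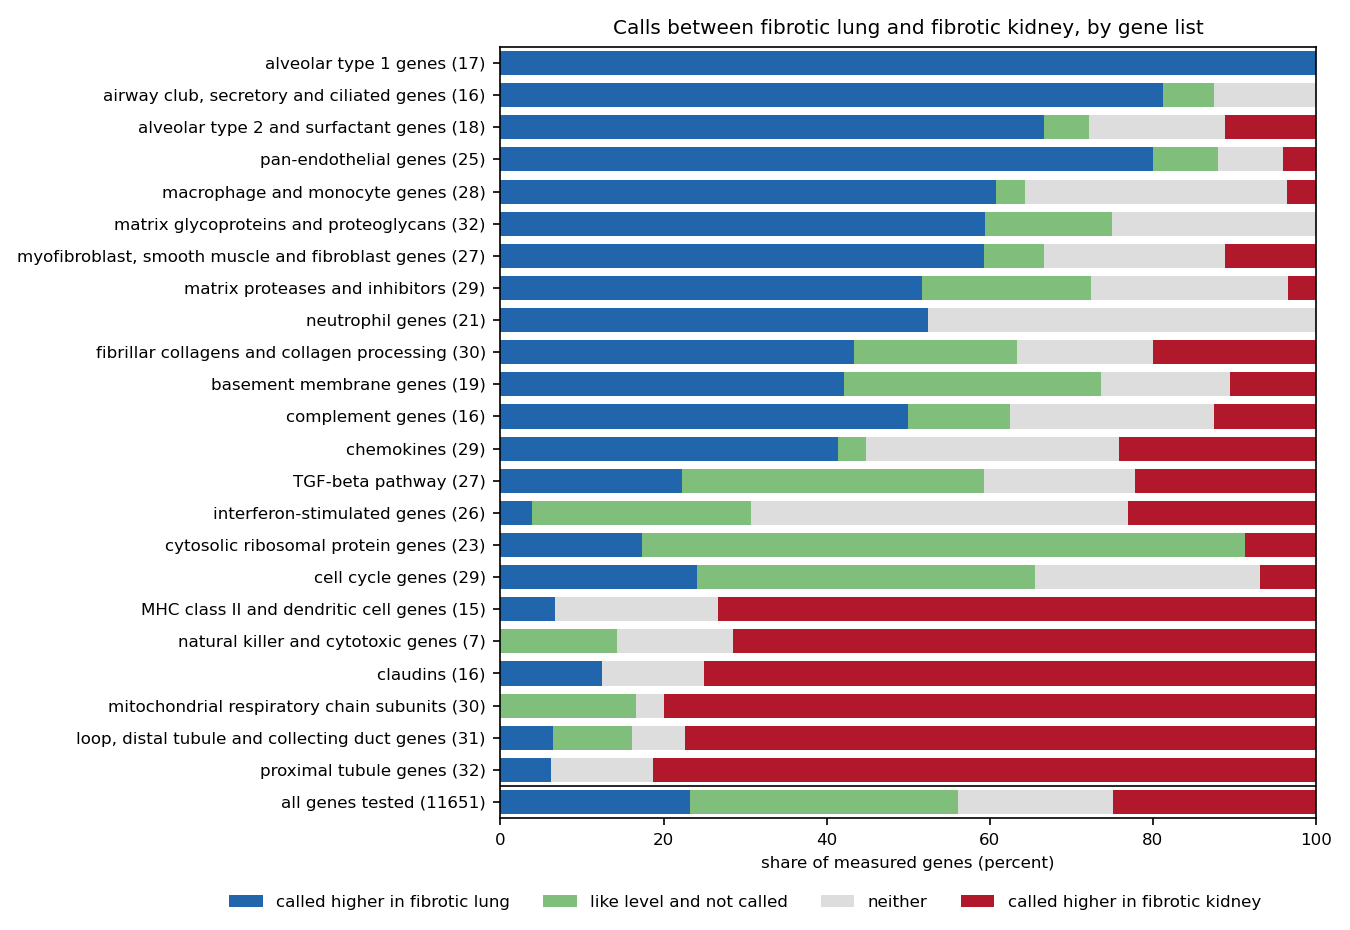
Share of the measured genes of each list (percent, number measured in brackets) that were called higher in fibrotic lung, at a like level without a call, neither, or called higher in fibrotic kidney. All 17 alveolar type 1 genes lie on the lung side and 26 of 32 proximal tubule genes on the kidney side, while the matrix and immune lists hold calls of more than 1 kind.

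Transcription factors that pattern the organs stayed apart. Of 14 measured lung-side factors, 12 were called higher in fibrotic lung and none higher in fibrotic kidney. Nkx2-1, the homeobox factor of lung and thyroid epithelium, had log2 levels of 10.45, 9.97 and 10.14 in the lungs and 4.86 and 5.0 in the kidneys, where it was at background. It was at least 35.3-fold higher in lung (adjusted p = 1.26e-08). Tbx4, a T-box factor of lung mesenchyme, had log2 levels of 11.25, 11.19 and 11.10 in the lungs and 4.68 and 4.61 in the kidneys, at least 70.5-fold apart (adjusted p = 1.6e-10). All 3 lungs lay far above both kidneys for each of these factors. Hopx, a homeodomain-only protein of alveolar type 1 cells, was above background in the kidneys as well, with log2 levels of 13.78, 13.81 and 13.82 in the lungs, 8.05 and 7.38 in the kidneys and a difference of 6.09 ± 0.20 (SE, adjusted p = 9.74e-10). Foxj1, the factor of motile cilia, was at a like level, with a difference of 0.41 ± 0.27 (log2) and levels of 5.65, 6.03 and 5.62 in the lungs and 5.61 and 5.10 in the kidneys, and it passed the test as higher in lung with median scaling (0.73) and in the deposited matrix (0.99).

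On the kidney side 15 of 18 factors were called higher in fibrotic kidney. The posterior Hox genes Hoxc9 and Hoxd9, of a family that sets position along the body axis, were at background in every fibrotic lung. Hoxc9 had log2 levels of 4.57, 4.46 and 4.36 in the lungs and 8.99 and 9.01 in the kidneys, at least 17.9-fold apart (adjusted p = 3.15e-10). Hoxd9 had log2 levels of 4.68, 4.49 and 4.63 in the lungs and 9.93 and 9.30 in the kidneys, at least 27.3-fold apart (adjusted p = 2.36e-09). The kidneys agreed closely for Hoxc9, and both genes separated the organs without overlap. Pax8, the paired-box factor of nephron epithelium, was at least 2.9-fold higher in fibrotic kidney (adjusted p = 2.38e-05), with log2 levels of 6.28 and 6.47 against 4.67, 4.74 and 4.61. Osr1, an early kidney factor, ran the other way, with log2 levels of 6.04, 5.80 and 6.07 in the lungs and 4.87 and 5.28 in the kidneys and a difference of 0.90 ± 0.22 (SE, adjusted p = 0.00496) that did not pass without fibrotic kidney 1 (0.69). Irx2 was at a like level in the fibrotic organs, at 0.26 ± 0.23 (log2 difference), against 1.46 ± 0.20 in the healthy ones. The mean over the kept probes of Irx2 was called higher in lung (0.66).

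Alveolar and airway genes remained higher in fibrotic lung, and several of them were also measured in the fibrotic kidneys. All 17 alveolar type 1 genes were called higher in lung, with a median difference of 3.96 (log2), as were 13 of 16 airway genes (median 3.32) and 12 of 18 alveolar type 2 and surfactant genes (median 2.26), against 23.3% of all genes. The largest fitted difference on the lung side was that of Cxcl15, lungkine, a chemokine of airway epithelium, with log2 levels of 13.32, 12.83 and 13.61 in the lungs and 4.91 and 4.51 in the kidneys. It was at background in both kidneys and at least 296-fold higher in lung (adjusted p = 1.6e-10). Cldn18, a claudin of alveolar epithelium, had log2 levels of 12.23, 12.02 and 11.94 in the lungs and 4.62 and 4.76 in the kidneys, at least 130-fold apart (adjusted p = 1.99e-10). Spock2, a testican of type 1 cells, reached 11.01, 11.29 and 11.50 in the lungs and 5.15 and 5.03 in the kidneys on the log2 scale, a difference of 6.17 ± 0.19 (SE, adjusted p = 4.74e-10). Each of these genes separated the 3 lungs from the 2 kidneys by a wide gap.

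Sftpb encodes surfactant protein B, which keeps alveoli open. Its log2 levels were 12.32, 12.11 and 12.41 in the lungs and 4.82 and 5.27 in the kidneys, above background in 1 kidney of 2, with a difference of 7.23 ± 0.19 (SE, adjusted p = 1.99e-10). Its promoter is shown beside that of Slc34a1, the phosphate transporter at the opposite end of the comparison, because these genes mark the 2 organs. Both sequences are the 250 bases before the start of transcription (RefSeq, GRCm38.p6, plus strand, chr6:72304360-72304609 and chr13:55399398-55399647), and capitals mark CTCAAG, the core bound by NKX2-1.
Sftpb: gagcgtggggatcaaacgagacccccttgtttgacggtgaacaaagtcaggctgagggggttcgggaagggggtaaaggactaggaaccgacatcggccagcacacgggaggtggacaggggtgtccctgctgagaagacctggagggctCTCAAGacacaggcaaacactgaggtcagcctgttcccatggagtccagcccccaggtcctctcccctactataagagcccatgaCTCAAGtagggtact
Slc34a1: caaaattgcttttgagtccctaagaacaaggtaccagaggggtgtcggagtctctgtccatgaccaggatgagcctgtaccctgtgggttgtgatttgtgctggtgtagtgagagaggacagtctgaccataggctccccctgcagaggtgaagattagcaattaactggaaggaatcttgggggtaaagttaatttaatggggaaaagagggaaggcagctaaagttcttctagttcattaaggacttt
The Sftpb window holds 2 copies of the core, and the Slc34a1 window none. Over all genes the core stood in 15.2% of 27025 promoters of this length, searched on both strands, and in 15.2% of the 2115 called higher in lung and 14.7% of the 2346 called higher in kidney. It stood in 6 of 11 airway genes, 2 of 10 alveolar type 2 genes and 3 of 14 alveolar type 1 genes called higher in lung, and in 6 of 19 loop and distal tubule genes called higher in kidney. The core bound by HNF1 factors of kidney and liver, also searched on both strands, stood in 0.44% of all promoters, 0.682% of those called higher in kidney and 0.0473% of those called higher in lung, and in none of the 20 proximal tubule genes called higher in kidney. A match of letters is a description and not a bound site.

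**Figure D2:**
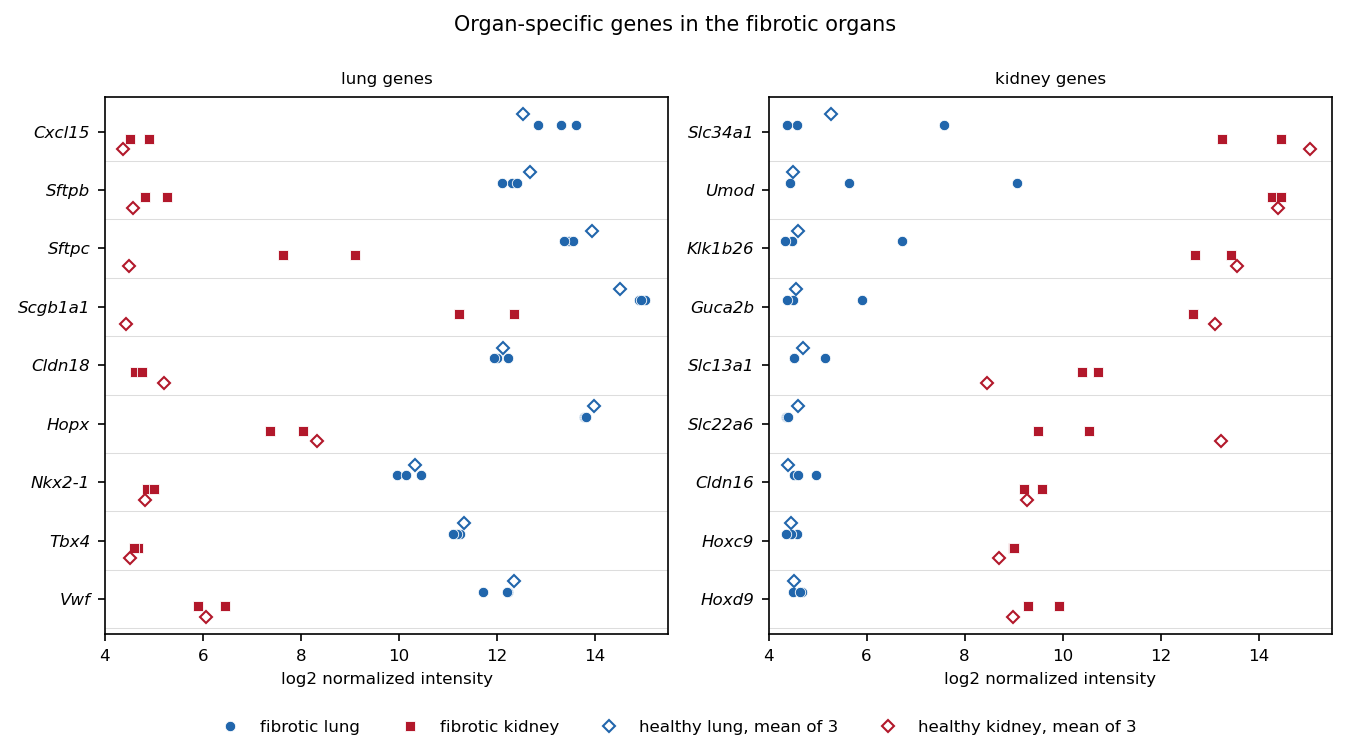
Log2 normalized intensity of 9 lung genes and 9 kidney genes in each fibrotic lung (blue circles) and fibrotic kidney (red squares), with the means of 3 healthy lungs and 3 healthy kidneys as open diamonds. Scgb1a1 and Sftpc stand far above their healthy kidney mean in both fibrotic kidneys, and Umod and Slc34a1 stand above the other lungs in fibrotic lung 1.

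Several lung transcripts were measured in the fibrotic kidneys well above their healthy kidney levels. Scgb1a1, the club cell secretory protein, had log2 levels of 15.03, 14.90 and 14.95 in the lungs and 12.35 and 11.23 in the fibrotic kidneys, while it was at background in all 3 healthy kidneys. Its organ difference was 3.17 ± 0.25 (log2, SE) in the fibrotic organs, and it was at least 615-fold higher in lung between the healthy ones. Sftpc, surfactant protein C, had log2 levels of 13.48, 13.55 and 13.37 in the lungs and 9.11 and 7.63 in the kidneys, a difference of 5.10 ± 0.30 (SE, adjusted p = 9.3e-08), and was at least 414-fold higher in lung between the healthy organs, with the healthy kidneys at background. Fibrotic kidney 1 was the higher of the pair for both genes. Sftpd, the collectin surfactant protein D, and Cyp2f2, a cytochrome of club cells, had differences of 5.38 ± 0.18 and 5.27 ± 0.30 in the fibrotic organs. Between the healthy organs Sftpd, at background in the kidneys, was at least 646-fold higher in lung, and Cyp2f2 differed by 8.48 ± 0.27 (log2, SE). The organ difference narrowed for 13 of 18 alveolar type 2 genes, 6 of 16 airway genes and 8 of 17 alveolar type 1 genes, against 31.6% of all genes. The part that lung RNA in the kidney samples has in these narrowings was not tested. Cldn18 and Cxcl15 stayed at background in both fibrotic kidneys.

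Some members of the alveolar lists were not lung genes in this comparison. Abca3, the lipid transporter of lamellar bodies, was at a like level in every scaling tried, with log2 levels of 12.96, 12.82 and 12.90 in the lungs and 13.17 and 13.08 in the kidneys and a difference of -0.23 ± 0.13. Napsa, the aspartic protease napsin A made in alveolar type 2 and proximal tubule cells, was higher in fibrotic kidney, with log2 levels of 14.67 and 14.48 against 12.86, 12.36 and 12.31 and a difference of -2.07 ± 0.20 (SE, adjusted p = 6.87e-06). Cyp2b10, a xenobiotic cytochrome that is no list member, was among the genes farthest on the lung side, with levels of 12.15, 12.18 and 11.72 in the lungs and 5.16 and 4.52 in the kidneys and a difference of 7.18 ± 0.42 (log2, SE, adjusted p = 8.12e-08).

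Tubule genes marked fibrotic kidney. Of 32 proximal tubule genes 26 were called higher in kidney (median difference -4.33), and of 31 genes of the loop, distal tubule and collecting duct 24 were (median -3.51), against 24.9% of all genes. Slc34a1 had log2 levels of 7.58, 4.59 and 4.38 in the lungs and 14.46 and 13.25 in the kidneys, a difference of -8.34 ± 0.82 (SE, adjusted p = 6.33e-06). Umod, uromodulin of the thick ascending limb, had log2 levels of 9.07, 5.65 and 4.44 in the lungs and 14.28 and 14.47 in the kidneys, a difference of -7.99 ± 0.90 (SE, adjusted p = 2.01e-05). Fibrotic lung 1 was the highest lung for both genes, and without it the difference of Umod was -9.33 ± 0.29. Slc34a1 was at background in the other lungs, and without fibrotic lung 1 it was at least 515-fold higher in kidney. Slc22a6, the organic anion transporter of proximal tubule, was at background in every lung, with log2 levels of 4.35, 4.37 and 4.40 there and 10.54 and 9.51 in the kidneys, at least 36.3-fold apart (adjusted p = 5.68e-09). Slc13a1, a sulfate transporter above background in 1 of the 3 lungs, had a difference of -5.83 ± 0.22 (log2, SE, adjusted p = 2.4e-09).

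The remaining genes with the largest excess in kidney showed the same lung. Klk1b26, a kallikrein-family protease that close paralogs could share signal with, had log2 levels of 6.72, 4.49 and 4.34 in the lungs and 13.44 and 12.71 in the kidneys, a difference of -7.89 ± 0.55 (SE, adjusted p = 3.66e-07). Keg1, a glycine acyltransferase-like protein of kidney, had log2 levels of 8.28, 4.91 and 4.35 in the lungs and 13.85 and 13.52 in the kidneys, a difference of -7.84 ± 1.61 (SE, adjusted p = 0.00174). Pdzk1, a scaffold of brush-border transporters, had log2 levels of 7.05, 5.12 and 4.55 in the lungs and 13.64 and 12.84 in the kidneys, a difference of -7.66 ± 0.99 (SE, adjusted p = 5.87e-05). Fibrotic lung 1 was the highest lung for all 3 genes, without reaching either kidney. Guca2b, uroguanylin, measured 12.66 and 12.66 in the kidneys and 5.91, 4.50 and 4.38 in the lungs on the log2 scale, a difference of -7.73 ± 0.34 (SE, adjusted p = 7.76e-09).

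Not every tubule gene followed. The subunits of the epithelial sodium channel, which clears fluid from the alveoli and reclaims sodium in the collecting duct, split: Scnn1a and Scnn1g were higher in fibrotic lung by 2.71 ± 0.24 and 2.51 ± 0.29 (log2, SE, adjusted p = 2.47e-06 and 2.35e-05). Scnn1b was at a like level, with log2 levels of 11.31, 10.96 and 10.82 in the lungs and 11.35 and 10.20 in the kidneys. Cyp4b1, a fatty acid hydroxylase, was higher in healthy kidney than in healthy lung, at -2.22 ± 0.20, and higher in fibrotic lung than in fibrotic kidney, at 1.22 ± 0.22 (log2 differences, SE, adjusted p of the fibrotic contrast = 0.000683). Eif2s3y was above background in all healthy kidneys and in neither fibrotic kidney, so sex and fibrosis cannot be told apart in this turn. Aqp1, the water channel of capillaries and proximal tubule, had log2 levels of 13.40, 13.46 and 13.40 in the lungs and 13.14 and 12.26 in the kidneys, with a difference of 0.72 ± 0.21 (SE, adjusted p = 0.0139). It did not pass without fibrotic kidney 2 (0.28), without fibrotic lungs 1 and 2 (0.70), with only the compared groups in the fit (0.72) or with their arrays normalized alone (0.71). The magnesium channel Trpm6 was at a like level, at -0.36 ± 0.24 (log2 difference, SE), and was called higher in kidney without fibrotic lungs 1 and 2 (-0.83). Of 14 podocyte and glomerular genes 4 were called higher in lung, 2 higher in kidney and 7 were at like levels, or 4 without fibrotic lungs 1 and 2, among them Synpo, the actin-binding synaptopodin, at -0.25 ± 0.16 (log2 difference, SE) in the fibrotic organs and 1.32 ± 0.15 in the healthy ones. Nphs1, nephrin of the slit diaphragm, was at background in every lung and at least 2.05-fold higher in fibrotic kidney (adjusted p = 0.00275).

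Claudins leaned to the kidney. Of 16 measured claudins 12 were called higher in fibrotic kidney and 2 higher in fibrotic lung, beside 24.9% and 23.3% of all genes. Under each of 5 scalings and background corrections 8 were called higher in kidney, beside 1544 of all 11651 genes. Between the healthy organs 8 were called higher in kidney and 4 higher in lung. Only 1, Cldn9, was at a like level between the fibrotic organs, and it was also called by a small margin that 12 of 25 alternatives lost. The lung-side count was 4 without fibrotic kidney 2. Cldn16 and Cldn19 form the cation pore of the thick ascending limb. Cldn16 had log2 levels of 4.96, 4.52 and 4.60 in the lungs and 9.59 and 9.21 in the kidneys, a difference of -4.71 ± 0.16 (SE, adjusted p = 1.71e-09). Cldn19 had log2 levels of 4.64, 4.42 and 4.47 in the lungs and 7.73 and 7.28 in the kidneys, at least 6.35-fold apart (adjusted p = 1.46e-08). These claudins were at or near background in the lungs.

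Cldn4, an epithelial claudin that injury induces in lung, measured 10.80, 11.26 and 10.48 in the lungs and 12.11 and 12.92 in the kidneys on the log2 scale. Both kidneys lay above all lungs, and the difference of -1.67 ± 0.49 (SE, adjusted p = 0.0141) did not pass without fibrotic kidney 2 (-1.26), without fibrotic lungs 1 and 2 (-2.03) or with the deposited matrix values (-1.28). Cldn1 and Cldn2, named after their values were seen, had differences of -4.14 ± 0.34 and -5.41 ± 0.54 (log2, SE, adjusted p = 1.35e-06 and 7.49e-06). The difference of Cldn1, a claudin of parietal and injured epithelium, was -1.13 ± 0.30 in the healthy organs. Cldn5, the claudin of endothelium, stayed on the lung side, with log2 levels of 12.34, 12.53 and 12.26 in the lungs and 9.03 and 8.29 in the kidneys, a difference of 3.71 ± 0.21 (SE, adjusted p = 6.01e-08) against 4.89 ± 0.19 in the healthy organs. Of 20 other tight junction and polarity genes 7 were called higher in lung, 6 higher in kidney and 7 were at like levels, beside 23.3%, 24.9% and 39.8% of all genes. Under each of 5 scalings and background corrections 7 were called higher in lung and 1 higher in kidney, beside 2527 and 1544 of all 11651 genes. Among those at like levels was the adhesion receptor Cxadr at -0.25 ± 0.20 (log2 difference, SE), which was called higher in kidney without fibrotic kidney 1 (-0.68). The like-level count of these genes was 4 without fibrotic kidney 1, and their kidney-side count was 3 without fibrotic kidney 2.

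Endothelial genes were mostly higher in fibrotic lung. Of 25 pan-endothelial genes 20 were called higher in lung and 1 higher in kidney, with a median difference of 1.53 (log2) against 2.63 between the healthy organs, and the organ difference narrowed for 18 of 25. Vwf, von Willebrand factor, had log2 levels of 12.23, 11.72 and 12.20 in the lungs and 6.44 and 5.91 in the kidneys, a difference of 5.87 ± 0.28 (SE, adjusted p = 1.56e-08). Endoglin, Eng, a TGF-beta co-receptor of endothelium, was at a like level, with log2 levels of 9.92, 9.90 and 9.90 in the lungs and 9.97 and 9.68 in the kidneys and a difference of 0.08 ± 0.15 against 2.43 ± 0.13 in the healthy organs. Emcn, endomucin, was the member called higher in kidney, with a difference of -1.52 ± 0.24 (log2, SE, adjusted p = 0.000258).

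Of 24 genes of organ-specialised endothelium 12 were called higher in lung and 6 higher in kidney, beside 23.3% and 24.9% of all genes. Tmem100, a target of bone morphogenetic protein signals in lung endothelium, had a difference of 6.01 ± 0.26 (log2, SE, adjusted p = 6.91e-09). Foxf1, a forkhead factor of lung mesenchyme and endothelium, was at background in both kidneys and at least 21.9-fold higher in lung (adjusted p = 9.74e-09). Aplnr, the apelin receptor, had log2 levels of 6.37, 6.75 and 7.14 in the fibrotic lungs and 8.28 and 8.60 in the fibrotic kidneys, a difference of -1.68 ± 0.24 (SE, adjusted p = 0.000139), and the opposite difference, 2.37 ± 0.22, in the healthy organs. Igfbp5, a binding protein of insulin-like growth factors, was at a like level with 0.04 ± 0.28 (log2 difference, SE).

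Of 30 measured genes of fibrillar collagens and collagen processing, 13 were called higher in fibrotic lung, 6 higher in kidney and 7 were at like levels. Their median difference was 0.44 (log2). The list also holds other collagens and the proteins that process collagen. Over all genes the lung, kidney and like-level shares were 23.3%, 24.9% and 39.8%. Col1a1, which encodes the alpha 1 chain of collagen I, had log2 levels of 11.37, 10.26 and 11.49 in the lungs and 8.90 and 9.60 in the kidneys. Every lung lay above both kidneys, and the difference of 1.79 ± 0.44 (SE, adjusted p = 0.0056) did not pass without fibrotic kidney 1 (1.44). Col3a1, type III collagen, had log2 levels of 8.76, 8.87 and 9.64 in the lungs and 7.82 and 8.52 in the kidneys, a difference of 0.92 ± 0.26 (SE, adjusted p = 0.0109). It did not pass without fibrotic kidney 1 (0.57), with array weights (0.75), with only the compared groups in the fit (0.92) or with their arrays normalized alone (0.91). Col1a2 did not pass, with log2 levels of 6.45, 5.61 and 6.39 in the lungs, 5.45 and 5.62 in the kidneys and a difference of 0.62 ± 0.31 (SE, adjusted p = 0.124). The difference of Col1a2 passed with median scaling (0.99), with the deposited matrix values (1.27) and without fibrotic lung 2 (0.89).

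Other collagens separated the organs more sharply, and not all in the same direction. Col6a1, a chain of the beaded microfibril, had log2 levels of 12.84, 12.84 and 13.07 in the lungs and 10.07 and 10.15 in the kidneys, a difference of 2.81 ± 0.18 (SE, adjusted p = 2.14e-07). Pcolce2, an enhancer of procollagen processing, was higher in lung by 3.03 ± 0.15 (log2, SE, adjusted p = 1.56e-08). Col15a1, a collagen of vessel and tubule basement membrane zones, had log2 levels of 6.47, 6.06 and 6.86 in the lungs and 9.56 and 9.36 in the kidneys. It did not overlap between the organs and differed by -2.99 ± 0.34 (SE, adjusted p = 1.87e-05), where the healthy organs differed by -0.36 ± 0.30. P3h2, a prolyl hydroxylase of basement membrane collagen, was higher in kidney, with a difference of -2.93 ± 0.22 (log2, SE, adjusted p = 5.63e-07), and Col8a1, a vascular collagen named after its values were seen, with one of -1.70 ± 0.29 (adjusted p = 0.000465).

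Among the 7 members at like levels were a chaperone and a modifying enzyme of collagen. Serpinh1, the collagen chaperone HSP47, had log2 levels of 12.40, 12.38 and 12.66 in the lungs and 12.05 and 12.67 in the kidneys. The groups overlapped, and the difference was 0.12 ± 0.19 (SE) in the fibrotic organs against 1.63 ± 0.17 in the healthy ones. Plod3, a lysyl hydroxylase, had log2 levels of 11.29, 11.01 and 11.35 in the lungs and 10.74 and 11.61 in the kidneys, a difference of 0.05 ± 0.22 (SE). Both genes were at like levels under each of 5 scalings and background corrections, as were 2 of the 30 members in all, against 24.5% of all genes.

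**Figure D3:**
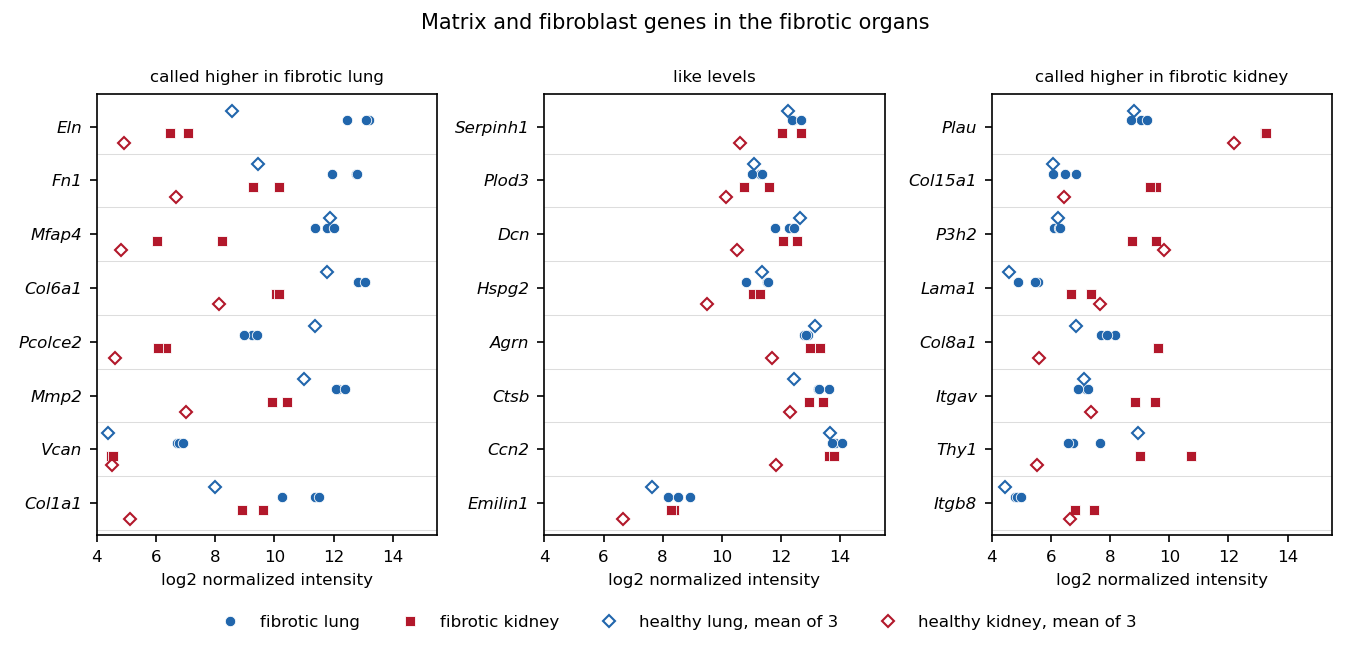
Log2 normalized intensity of matrix and fibroblast genes in each fibrotic lung (blue circles) and fibrotic kidney (red squares), with healthy means of 3 as open diamonds, grouped by call. Every like-level gene shown sits above its healthy kidney mean in both fibrotic kidneys, while Eln and Vcan sit above the healthy lung mean in all 3 fibrotic lungs.

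Matrix glycoproteins and proteoglycans were the most one-sided matrix list. Of 32 measured, 19 were called higher in fibrotic lung, none higher in fibrotic kidney and 5 were at like levels, with a median difference of 1.31 (log2) against 2.48 between the healthy organs, and 2 were at like levels without fibrotic lungs 1 and 2. Eln, elastin, had log2 levels of 13.20, 12.45 and 13.09 in the lungs and 7.07 and 6.48 in the kidneys, a difference of 6.14 ± 0.31 (SE, adjusted p = 2.06e-08) that had widened from 3.65 ± 0.28. Fn1, fibronectin, had log2 levels of 12.75, 11.94 and 12.79 in the lungs and 9.28 and 10.16 in the kidneys, a difference of 2.77 ± 0.39 (SE, adjusted p = 0.000106). The organs did not overlap for either gene. Vcan, the proteoglycan versican, was at background in both kidneys and at least 3.39-fold higher in lung (adjusted p = 3.73e-08). Mfap4, a microfibril protein named after its values were seen, had log2 levels of 11.79, 11.36 and 12.01 in the lungs and 8.23 and 6.03 in the kidneys, a difference of 4.59 ± 0.51 (SE, adjusted p = 1.63e-05).

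The small proteoglycan Dcn, decorin, was at a like level, with log2 levels of 12.26, 11.80 and 12.44 in the lungs and 12.07 and 12.54 in the kidneys and a difference of -0.13 ± 0.32 (SE) against 2.13 ± 0.28 in the healthy organs. Hspg2, perlecan, differed by 0.14 ± 0.22 and Emilin1, an elastin-associated protein, by 0.21 ± 0.26 (log2, SE), both within the like-level limits. Tnc, tenascin C of provisional matrix, named after its values were seen, had log2 levels of 11.79, 11.69 and 11.79 in the lungs, 8.24 and 11.41 in the kidneys and a difference of 1.93 ± 0.75 (SE, adjusted p = 0.0502). The kidneys disagreed for Tnc: fibrotic kidney 2 lay close to the lungs and fibrotic kidney 1 well below them. The difference of Tnc passed without fibrotic kidney 2 (3.52) and, among others, with median scaling (2.12) and the deposited matrix values (2.34).

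Basement membrane genes came closer together than most lists. Of 19 measured, 8 were called higher in lung, 2 higher in kidney and 7 were at like levels, and the organ difference narrowed for 14 of 19. Agrn, agrin of the glomerular and alveolar basement membrane, had log2 levels of 12.90, 12.79 and 12.83 in the lungs and 12.98 and 13.33 in the kidneys, a difference of -0.32 ± 0.15 (SE) against 1.44 ± 0.13 in the healthy organs, and it was called higher in kidney without fibrotic kidney 1 (-0.49). Col4a1, a chain of type IV collagen, was at a like level at 0.31 ± 0.20, while its partner Col4a2 was called higher in lung at 1.03 ± 0.20 (log2 differences, SE, adjusted p = 0.235 and 0.00138). Lama1, a laminin chain of tubule basement membrane, was higher in kidney, with a difference of -1.70 ± 0.24 and Lamc1, the common gamma chain, higher in lung by 1.70 ± 0.18 (log2 differences, SE, adjusted p = 0.000109 and 1.19e-05). Without fibrotic kidney 2, 4 of the 19 were at like levels, and without fibrotic lungs 1 and 2 the lung-side count was 5.

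Matrix proteases and their inhibitors were called higher in lung for 15 of 29, higher in kidney for 1 and at like levels for 7, or 4 without fibrotic kidney 1. The member higher in kidney was Plau, urokinase, with log2 levels of 9.06, 8.70 and 9.23 in the lungs and 13.23 and 13.26 in the kidneys, a difference of -4.25 ± 0.19 (SE, adjusted p = 7.96e-09). Mmp2, gelatinase A, was higher in lung by 2.02 ± 0.20 and Adam9, a membrane metalloprotease, by 2.14 ± 0.19 (log2 differences, SE, adjusted p = 6.57e-06 and 2.77e-06). Ctsb, the lysosomal cathepsin B, was at a like level with log2 levels of 13.62, 13.27 and 13.27 in the lungs and 12.96 and 13.40 in the kidneys, as it was in the healthy organs at 0.14 ± 0.14 (log2 difference, SE). Another probe of Ctsb disagreed enough that the mean over its probes passed (0.68). Timp1, the inhibitor most induced by injury, had log2 levels of 12.77, 13.52 and 13.64 in the lungs and 9.40 and 13.61 in the kidneys. Fibrotic kidney 2 lay among the lungs and fibrotic kidney 1 far below, so that the difference of 1.80 ± 0.87 (SE, adjusted p = 0.105) did not pass, and passed without fibrotic kidney 2 (3.91).

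Of 27 myofibroblast, smooth muscle and fibroblast genes 16 were called higher in lung and 3 higher in kidney, with 3 at like levels. Acta2, the actin that makes myofibroblasts contractile, had log2 levels of 13.54, 13.47 and 13.81 in the lungs and 12.03 and 12.58 in the kidneys. Every lung lay above both kidneys, and the difference of 1.31 ± 0.43 (SE, adjusted p = 0.0256) did not pass without fibrotic lung 3 (1.20), without fibrotic kidney 1 (1.03), without fibrotic lungs 1 and 2 (1.51) or with array weights (1.27). Meox2, a mesenchymal homeobox gene, was at background in both kidneys and at least 14.4-fold higher in lung (adjusted p = 4.57e-07), and Fgf10, a growth factor of lung mesenchyme, was higher by 2.46 ± 0.21 (log2, SE, adjusted p = 1.95e-06). Thy1, a surface glycoprotein of fibroblasts and T cells, turned around: its log2 levels were 6.75, 6.58 and 7.67 in the fibrotic lungs and 9.02 and 10.73 in the fibrotic kidneys, a difference of -2.88 ± 0.44 (SE, adjusted p = 0.000229), against 3.41 ± 0.40 between the healthy organs. Smtn, smoothelin of contractile smooth muscle, was higher in kidney, with a difference of -1.54 ± 0.20 (log2, SE, adjusted p = 6.14e-05). Cspg4, the pericyte proteoglycan NG2, was at a like level in both states, at -0.22 ± 0.24 and -0.23 ± 0.21 (log2, SE).

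In the TGF-beta pathway 10 of 27 genes were at like levels, 6 were called higher in lung and 6 higher in kidney. These shares lay near those of all genes, 39.8%, 23.3% and 24.9%. Ccn2, connective tissue growth factor and a classic TGF-beta target, had log2 levels of 13.83, 14.06 and 13.73 in the lungs and 13.64 and 13.79 in the kidneys. The groups overlapped, with a difference of 0.16 ± 0.20 (SE) where the healthy organs differed by 1.81 ± 0.18. The ligand Tgfb1, named after its values were seen, was at a like level, with log2 levels of 8.45, 8.12 and 8.27 in the lungs and 7.90 and 8.80 in the kidneys, as was Bmp4 at -0.24 ± 0.17 (log2 difference, SE). Over the alternatives the difference of Bmp4 ran from -0.30 to 1.115. Integrin chains that free TGF-beta from its latent complex were higher in kidney, with differences of -2.08 ± 0.20 for Itgav, -1.57 ± 0.20 for Itgb6 and -2.26 ± 0.28 for Itgb8 (log2, SE, adjusted p = 5.09e-06, 4.3e-05 and 4.14e-05). Ltbp1, which stores latent TGF-beta in the matrix, and Bmper, a modulator of bone morphogenetic proteins, were higher in lung by 2.17 ± 0.23 and 4.11 ± 0.28 (log2 differences, SE, adjusted p = 1.09e-05 and 3.13e-07).

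Of 19 tubule injury genes 6 were called higher in lung, 6 higher in kidney and 2 were at like levels, beside 23.3%, 24.9% and 39.8% of all genes. Havcr1, the kidney injury molecule KIM-1, had log2 levels of 5.76, 4.85 and 4.64 in the lungs and 10.12 and 12.99 in the kidneys, a difference of -6.47 ± 0.61 (SE, adjusted p = 4.53e-06), and it already differed by -4.56 ± 0.55 between the healthy organs. Krt20, a keratin of injured tubule, had log2 levels of 4.82, 4.71 and 4.54 in the lungs and 8.47 and 11.14 in the kidneys, a difference of -5.12 ± 0.52 (SE, adjusted p = 8.54e-06), and was at background in all 6 healthy samples. Fibrotic kidney 2 was the higher kidney for both. Lcn2, the iron-binding lipocalin NGAL, had log2 levels of 13.03, 13.58 and 13.68 in the lungs and 11.17 and 14.78 in the kidneys, on either side of the lungs, so the difference of 0.45 ± 0.81 (SE, adjusted p = 0.676) did not pass, and it passed without fibrotic kidney 2 (2.26). A p that misses the threshold does not show a like level, and neither Lcn2 nor Timp1 met the limits for one.

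The keratins Krt8 and Krt18 of simple epithelium did meet them. Krt8 had log2 levels of 12.51, 12.73 and 12.13 in the lungs and 12.41 and 12.92 in the kidneys, a difference of -0.21 ± 0.20 (SE), and its partner Krt18 differed by 0.22 ± 0.32 where the healthy organs differed by 2.60 ± 0.28. Krt19 stayed higher in lung, by 2.32 ± 0.40, as did the intermediate filament gene Vim, by 3.27 ± 0.35 (log2 differences, SE, adjusted p = 0.000538 and 1.4e-05). Of 20 genes of alveolar injury and transitional epithelium 6 were called higher in lung, 5 higher in kidney and 4 were at like levels, beside 23.3%, 24.9% and 39.8% of all genes. Krt5, a basal cell keratin, was at background in every fibrotic lung and at least 2.25-fold higher in fibrotic kidney (adjusted p = 6.58e-05). Without fibrotic kidney 2 the counts on the lung and kidney sides were 10 and 3, and without fibrotic lungs 1 and 2 they were 3 and 3. The like-level count was 2 without fibrotic lung 1, 2 without fibrotic kidney 2 and 1 without fibrotic lungs 1 and 2.

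Macrophage and monocyte genes were higher in fibrotic lung for 17 of 28, higher in kidney for 1 and at a like level for 1. Chil3, a chitinase-like protein of alternatively activated macrophages, had log2 levels of 12.69, 12.90 and 12.80 in the lungs and 4.59 and 6.29 in the kidneys, a difference of 7.36 ± 0.59 (SE, adjusted p = 1.19e-06). The near-identical paralog Chil4 read 12.66, 12.48 and 12.74 in the lungs and 4.47 and 5.51 in the kidneys (log2 levels), and hybridisation could mix the pair, so which of them the signal came from is uncertain. Mrc1, the mannose receptor, was higher in lung by 2.24 ± 0.20 (log2, SE, adjusted p = 3.22e-06), and Retnla, a resistin-like secreted protein named after its values were seen, by 4.53 ± 0.68 (adjusted p = 0.00018). The receptor that all macrophages share, Csf1r, was at a like level in every scaling tried, with log2 levels of 9.09, 9.0 and 9.09 in the lungs and 9.03 and 9.23 in the kidneys and a difference of -0.07 ± 0.16 (SE). Cx3cr1, the fractalkine receptor, was the member higher in kidney, with a difference of -1.99 ± 0.45 (log2, SE, adjusted p = 0.00323), and did not pass without fibrotic lungs 1 and 2 (-1.20).

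**Figure D4:**
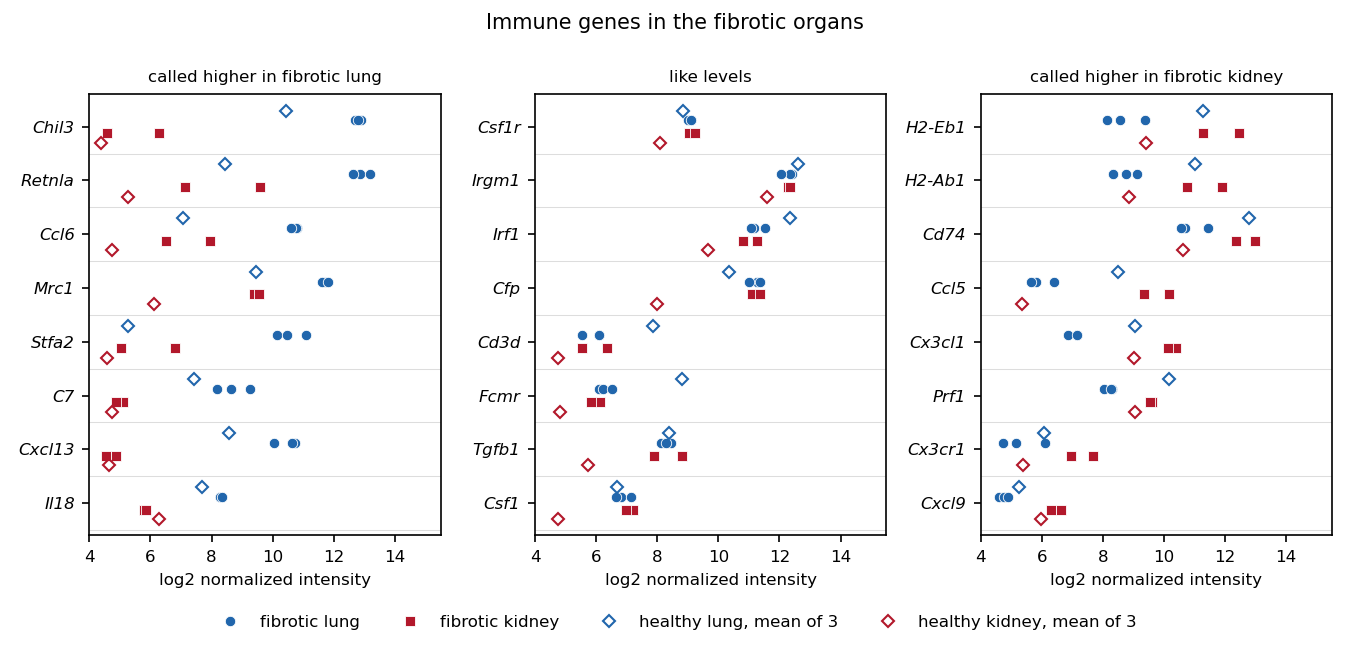
Log2 normalized intensity of immune genes in each fibrotic lung (blue circles) and fibrotic kidney (red squares), with healthy means of 3 as open diamonds, grouped by call. The MHC class II genes H2-Eb1 and H2-Ab1 sit higher in both fibrotic kidneys than in any fibrotic lung, while their healthy means have the opposite order.

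Neutrophil genes depended on which kidney was read. Of 21 measured, 11 were called higher in lung and none was called higher in kidney or at a like level, and without fibrotic kidney 1 the lung-side count was 4, without fibrotic kidney 2 it was 17, and without fibrotic lungs 1 and 2 it was 5. S100a8, an alarmin stored in neutrophils and named after its values were seen, had log2 levels of 12.61, 12.72 and 13.64 in the lungs and 6.68 and 12.05 in the kidneys. Fibrotic kidney 2 lay just below the lungs, and fibrotic kidney 1 was lower by several log2 units. The difference of 3.62 ± 1.29 (SE, adjusted p = 0.035) did not pass when any 1 of the 3 lungs was left out, with values from 3.30 to 3.82, or without fibrotic kidney 1, where it was 0.94, or without fibrotic lungs 1 and 2, where it was 4.28. Ngp, a granule protein of immature neutrophils, was at background in both kidneys and at least 1.94-fold higher in lung (adjusted p = 9.73e-06). Stfa2, a stefin with close paralogs in its cluster, had log2 levels of 10.13, 10.48 and 11.09 in the lungs and 5.03 and 6.82 in the kidneys, a difference of 4.64 ± 0.74 (SE, adjusted p = 0.000295).

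Antigen presentation by MHC class II stood on the kidney side. Of 15 genes of MHC class II and dendritic cells 11 were called higher in fibrotic kidney and 1 higher in fibrotic lung, whereas 13 were called higher in lung between the healthy organs (36.8% of all genes) and none higher in kidney (29.8%). H2-Eb1, a class II beta chain, had log2 levels of 8.57, 8.13 and 9.36 in the lungs and 12.45 and 11.29 in the kidneys, a difference of -3.19 ± 0.36 (SE, adjusted p = 1.84e-05) against 1.87 ± 0.32 in the healthy organs. H2-Ab1 had log2 levels of 8.75, 8.32 and 9.12 in the lungs and 11.89 and 10.75 in the kidneys, a difference of -2.59 ± 0.29 (SE, adjusted p = 1.99e-05) against 2.15 ± 0.26. Cd74, the invariant chain, followed with -1.77 ± 0.28 (SE, adjusted p = 0.000282) against 2.16 ± 0.25. Fibrotic kidney 1 was the higher kidney for all 3 genes, and no lung overlapped a kidney. The count on the kidney side was 7 without fibrotic kidney 1, 7 without fibrotic lungs 1 and 2, and 8 members were called higher in kidney under every scaling and background correction tried.

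Natural killer genes were also on the kidney side, while T and B cell genes were split. Of 7 natural killer and cytotoxic genes 5 were called higher in kidney and none higher in lung, and without fibrotic kidney 1 the count was 2 and without fibrotic lungs 1 and 2 it was 3. Ccl5, a chemokine of T and natural killer cells, had log2 levels of 5.82, 5.63 and 6.40 in the lungs and 10.17 and 9.36 in the kidneys, a difference of -3.81 ± 0.31 (SE, adjusted p = 1.41e-06) against 3.15 ± 0.28 in the healthy organs. Prf1, perforin, was higher in kidney, with a difference of -1.37 ± 0.17 (log2, SE, adjusted p = 4.73e-05). Under each of 5 scalings and background corrections 3 of the 7 natural killer and cytotoxic genes were called higher in kidney, beside 1544 of all 11651 genes. Of 12 T cell genes 2 were called higher in lung, 3 higher in kidney and 3 were at like levels, beside 23.3%, 24.9% and 39.8% of all genes. The organ difference narrowed for 9 of these T cell genes. Cd3d, a chain of the T cell receptor complex, had log2 levels of 5.53, 6.09 and 6.09 in the lungs and 6.36 and 5.53 in the kidneys and a difference of -0.04 ± 0.29 (SE), while in the healthy organs, with the kidneys at background, it was at least 6.16-fold higher in lung. Of 11 B and plasma cell genes 2 were called higher in lung and 3 were at like levels, among them Fcmr, the receptor for immunoglobulin M, at 0.30 ± 0.24 (log2 difference, SE). Between the healthy organs Fcmr, at background in the kidneys, was at least 11.8-fold higher in lung.

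Interferon-stimulated genes gave few calls on the lung side. Of 26 measured 1 was called higher in lung, 6 higher in kidney and 7 were at like levels, beside 23.3%, 24.9% and 39.8% of all genes. The organ difference narrowed for 17, beside 31.6% of all genes. Under each of 5 scalings and background corrections 1 member was called higher in lung and 2 higher in kidney, beside 2527 and 1544 of all 11651 genes. Irgm1, an immunity-related GTPase, had log2 levels of 12.41, 12.36 and 12.06 in the lungs and 12.29 and 12.34 in the kidneys, a difference of -0.04 ± 0.17 (SE). The mean over the kept probes of Irgm1 was called higher in kidney (-0.42). Irf1, an interferon regulatory factor, differed by 0.22 ± 0.20 where the healthy organs differed by 2.68 ± 0.18 (log2, SE), and the mean over its kept probes was called higher in lung (0.52). Cxcl9, a chemokine induced by interferon gamma, was higher in kidney, with a difference of -1.71 ± 0.27 (log2, SE, adjusted p = 0.000236) and Ifit3 higher in lung by 1.27 ± 0.31 (adjusted p = 0.00474). The kidney-side count was 2 without fibrotic kidney 2 and 3 without fibrotic lungs 1 and 2.

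Chemokines were called higher in lung for 12 of 29, higher in kidney for 7 and at like levels for 2, beside 23.3%, 24.9% and 39.8% of all genes. Cx3cl1, fractalkine, a membrane-bound chemokine of epithelium and endothelium, had log2 levels of 7.13, 6.87 and 7.15 in the lungs and 10.39 and 10.14 in the kidneys. The organs did not overlap, at -3.22 ± 0.20 (SE, adjusted p = 1.34e-07), where the healthy organs differed by 0.01 ± 0.18. Ccl6 was higher in lung by 3.50 ± 0.38 (log2, SE, adjusted p = 1.4e-05). Cxcl13, which draws B cells and was named after its values were seen, had log2 levels of 10.05, 10.73 and 10.63 in the lungs and 4.53 and 4.87 in the kidneys, where its probe was at background, and it was at least 43-fold higher in lung (adjusted p = 7.61e-05). Cxcl16 was within the like-level limits, at -0.41 ± 0.15 (log2 difference, SE), and was also called higher in kidney by a margin that 11 of 25 alternatives lost. Without fibrotic kidney 1 the lung-side count was 6.

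Of 31 cytokines and receptors 11 were called higher in lung, 3 higher in kidney and 3 were at like levels, and the lung-side count was 18 without fibrotic kidney 2 and the kidney-side count 7 without fibrotic kidney 1. Il18, an inflammasome cytokine, had log2 levels of 8.27, 8.27 and 8.35 in the lungs and 5.79 and 5.85 in the kidneys, a difference of 2.48 ± 0.16 (SE, adjusted p = 1.41e-07). Il34, a ligand of the Csf1r receptor, was higher in kidney, with a difference of -2.07 ± 0.31 (log2, SE, adjusted p = 0.000184), while Csf1, the other ligand, was at a like level at -0.23 ± 0.22 (log2 difference, SE). Of 16 complement genes 8 were called higher in lung, 2 higher in kidney and 2 were at like levels. C7, of the membrane attack complex, was higher in lung by 3.70 ± 0.27 (log2, SE, adjusted p = 5.8e-07), and the lung-side count was 5 without fibrotic lung 3 and 5 without fibrotic kidney 1. Cfp, properdin of the alternative pathway, was at a like level in every scaling tried, with log2 levels of 11.25, 10.99 and 11.38 in the lungs and 11.11 and 11.38 in the kidneys and a difference of -0.04 ± 0.26 (SE) against 2.38 ± 0.23 in the healthy organs.

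Genes of energy use separated the organs by smaller steps than the tubule genes. Of 30 respiratory chain subunits 24 were called higher in kidney and none higher in lung, with a median difference of -0.78 against -1.33 between the healthy organs (log2), and 9 were at like levels. Uqcrc1, a core subunit of complex III, had log2 levels of 10.86, 10.97 and 10.76 in the lungs and 12.55 and 12.07 in the kidneys, a difference of -1.45 ± 0.19 (SE, adjusted p = 7.35e-05). The like-level count was 4 without fibrotic lung 2, 16 without fibrotic kidney 1, 3 without fibrotic kidney 2 and 3 without fibrotic lungs 1 and 2. Without fibrotic kidney 1 the kidney-side count was 13, without fibrotic lungs 1 and 2 it was 15, and 14 were called under every scaling and background correction. Of 27 fatty acid oxidation and peroxisome genes 18 were called higher in kidney and 1 higher in lung, with Ehhadh, the peroxisomal bifunctional enzyme, at -3.0 ± 0.26 (log2, SE, adjusted p = 2.08e-06) against -4.46 ± 0.23 in the healthy organs. Of 18 glycolytic genes 10 were called higher in kidney, among them Tpi1 at -1.58 ± 0.14 (log2, SE, adjusted p = 2.8e-06), and 2 higher in lung. The kidney-side count was 5 without fibrotic lung 3, and 4 were called higher in kidney under every scaling and background correction. Over all genes, 1544 of 11651 were called higher in kidney under every one.

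Ribosomal protein genes were the list with the largest share at like levels. Of 23 measured, 18 met the limits and 16 met them under every scaling and background correction, against 39.8% and 24.5% of all genes, and 14 had been called higher in healthy lung. Rplp1 had log2 levels of 14.86, 14.93 and 15.03 in the lungs and 14.86 and 14.88 in the kidneys, a difference of 0.07 ± 0.13 (SE). Of 29 cell cycle genes 14 were at like levels, 7 were called higher in lung and 2 higher in kidney, beside 39.8%, 23.3% and 24.9% of all genes. The like-level count was 8 without fibrotic lung 1, 9 without fibrotic lung 2, 9 without fibrotic lung 3 and 5 without fibrotic kidney 2, and the lung-side count ran from 2, without fibrotic lung 2 or fibrotic kidney 1, to 13, without fibrotic kidney 2. Ccnd1, cyclin D1, was at a like level, at -0.10 ± 0.24 (log2 difference, SE).

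Read against all genes, and counted over the genes measured, the matrix and immune lists did not reach like levels more often. A like level was met by 39.8% of all genes tested. It was met by 7 of 30 collagen and collagen processing genes, 5 of 32 matrix glycoproteins and 7 of 29 proteases. In the immune lists it was met by 1 of 28 macrophage genes, none of 21 neutrophil genes and none of 15 MHC class II and dendritic genes. The call needs signal above background in all 5 samples. Only 9 of the neutrophil and 9 of the MHC class II and dendritic genes had it. Among genes that had it, like levels were met by 3 of 6 T cell and 3 of 4 B and plasma cell genes, beside 50.1% of all such genes. Lists with as large a share as all genes or nearly so were basement membrane (7 of 19), TGF-beta (10 of 27), podocyte (7 of 14), cell cycle and ribosomal protein genes. Narrowing, beside 31.6% of all genes, was called for 15 of 32 matrix glycoproteins, 14 of 19 basement membrane genes, 17 of 26 interferon-stimulated genes, 18 of 25 pan-endothelial genes and 9 of 12 T cell genes. It was called for 10 of 30 collagen and collagen processing genes, 8 of 29 proteases, 4 of 28 macrophage genes and 2 of 21 neutrophil genes. It was also called for 6 of 29 chemokines and 4 of 16 complement genes. These 6 shares were near or under that of all genes. The scatter of organ differences shows where the groups of genes lie.

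**Figure D5:**
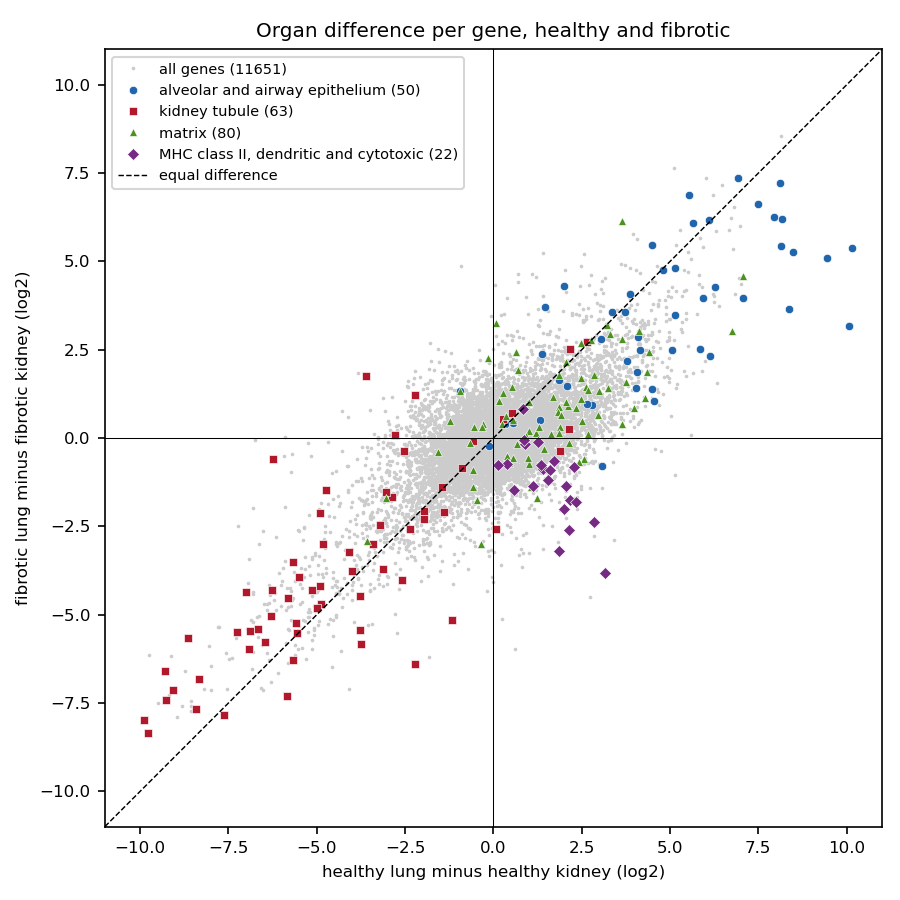
Difference between the organs per gene (log2, lung minus kidney), healthy on the horizontal and fibrotic on the vertical axis, for 11651 genes (grey) and 4 groups of lists in colour, with the dashed line where both are equal. Most alveolar and airway genes lie on the right and most tubule genes on the left, and Sftpc and Sftpd lie well below the line. The MHC class II, dendritic and cytotoxic genes lie mostly below 0 on the vertical and above 0 on the horizontal axis.

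Markers of other tissues were followed in all samples. Red cell genes were higher in fibrotic kidney for 5 of 7, with Hbb-bs, a beta globin that shares sequence with Hbb-bt, at log2 levels of 9.87, 9.07 and 9.42 in the lungs and 12.56 and 13.64 in the kidneys. The summed red cell list averaged 7.12 to 7.41 per gene in the fibrotic lungs, 9.64 to 10.08 in the fibrotic kidneys and 10.70 to 11.93 in the healthy organs (log2). Heart and skeletal muscle genes were higher in lung for 3 of 11, or 6 without healthy lung 2 or without healthy lung 3, at list means of 7.19 to 8.30 in the fibrotic lungs, 5.83 to 11.83 in the healthy lungs and 4.99 to 5.04 in the fibrotic kidneys. Liver genes were called for 1 of 12, Hp (haptoglobin), with list means of 5.81 to 6.02 in the fibrotic lungs and 5.74 to 5.80 in the fibrotic kidneys but 12.17 in healthy lung 3. The mean was 10.25 in 1 lung after ureteral surgery, which took part in the shared estimate of the spread. Of 5 fat genes none passed the adjusted p in the limma fit and none passed an unadjusted p of 0.05. Msln, mesothelin of the organ lining, was at background in both kidneys and at least 42.6-fold higher in lung (adjusted p = 3.88e-07), as 3 of 4 mesothelial and adrenal genes were called. The part of these cells in the organ differences was not tested.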

How the data were processed

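The 14 samples, whole mouse lungs and kidneys, were read on 15 Illumina bead arrays, with 1 lung after ureteral surgery on 2 of them. Per the labels' protocols, total RNA was extracted with TRIzol and amplified to biotinylated cRNA, and the submitters' processing notes name GenomeStudio 5.0. The authors deposited a non-normalized table with an average intensity and a detection p-value per probe, and a matrix of processed intensity values that, from the values, is linear and background-subtracted, with its scaling not given in the sources used here. As an alternative, these values were floored at 16 and taken to log2. Here neqc of limma 3.58.1 (R 4.3.3) corrected background, with negative controls inferred from the detection p-value and an offset of 16, and quantile-normalized all 15 arrays, and the repeated lung was averaged. Of 45281 probes, 34885 had 1 gene symbol, 18 several and 10378 none in the platform annotation. Probes with a detection p below 0.01 in at least 2 samples were kept, leaving 21054 probes and, with 1 probe a gene, 11651 genes.

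A linear model over 5 groups with empirical Bayes moderation (lmFit, eBayes, 9 residual and 3.06 prior degrees of freedom) gave each difference (log2), its standard error (SE) and a Benjamini-Hochberg adjusted p, called under 0.05. A probe whose detection p reached 0.05 in each of a group's samples counted as background there and gave a bound fold ("at least") against the lowest signals above background. Genes were named by rule (the 6 largest non-overlapping differences each way, per list up to 2 members with the smallest adjusted p on each side and the 2 highest at like levels, the 5 largest narrowings and widenings, and a short standing list of injury, matrix and organ genes), and 14 further genes after their values were seen. The members and lists were chosen with earlier results of these data known. The number of arrays limits the precision. The main fit took the samples as independent, although each healthy mouse gave a lung and a kidney and the mouse of fibrotic kidney 2 also gave a lung. By the animal names, replicate numbers did not pair the fibrotic organs. Samples with the same number had deviation correlations of 0.125 and 0.0725. These cannot decide pairing, because the deviations of 2 kidneys from their mean mirror each other. One healthy kidney has lung in its tissue field, and its title was followed. The fits were tested on simulated data, and alternatives covered background, scaling, filters, probes, the fit and each library left out.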

Additional observations from a re-analysis of the deposited data

Results flagged for a closer look

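The change of the organ difference, fibrotic minus healthy (log2, lung minus kidney), was tested for every gene, and the genes with the largest changes are given here. Where a group was at background, the fitted change is not exact. Among genes whose difference narrowed, Scgb1a1 had a fitted change of -6.90 ± 0.34 (SE, adjusted p = 3.04e-07). It was at background in all 3 healthy kidneys, at least 615-fold below healthy lung, and above background in both fibrotic kidneys. Thy1 changed by -6.29 ± 0.60 (adjusted p = 1.38e-05). Ppbp, a platelet chemokine at background in all 3 healthy kidneys, had a fitted change of -6.20 ± 1.42 (adjusted p = 0.00387), with log2 levels of 4.40 and 9.31 in the fibrotic kidneys. Acsm3, a medium-chain acyl-CoA synthetase, changed by 6.70 ± 0.87 and Ugt1a7c, a glucuronosyltransferase, by 5.93 ± 0.36 (adjusted p = 0.000104 and 9.28e-07). For both, as for every change of the organ difference, the fibrotic kidneys lacked Eif2s3y and the healthy kidneys held it. Sex and fibrosis therefore cannot be told apart.

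Among genes whose difference widened, Fcrls, an Fc receptor-like scavenger gene of macrophages, had a fitted change of -7.25 ± 0.38 (adjusted p = 3.27e-07). It was at background in all 3 healthy kidneys, at least 3.92-fold below healthy lung, and differed by -4.50 ± 0.28 between the fibrotic organs. Ccl5 changed by -6.96 ± 0.42 (adjusted p = 9.06e-07). Serpina10, the protein Z-dependent inhibitor of coagulation, changed by -6.58 ± 1.65 (adjusted p = 0.00667), from 0.62 ± 1.10 to -5.97 ± 1.23. Slc39a8, a zinc and manganese importer, changed by 5.78 ± 0.63 (adjusted p = 3.44e-05), with levels of 9.63, 10.19 and 10.41 in the fibrotic lungs and 4.61 and 5.82 in the fibrotic kidneys. Krt20 had a fitted change of -5.36 ± 0.70 (adjusted p = 0.000105) and was at background in all 6 healthy samples.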

How the results depend on the processing

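Of the 210 named genes, 148 lost no call and gained none in their own direction under any alternative that gave a value. None of the named genes called in the main fit changed sign. A change of sign in a gene that was not called was not counted, even where the new difference passed. Bmp4, for example, ran from -0.30 to 1.115 (log2) over the alternatives. Over all genes, a 2-fold minimum left 3052 calls, 1489 on the lung and 1563 on the kidney side, with 1908 called the same way as between the healthy organs. Median scaling gave 1886 kidney-side calls, and the deposited matrix values gave 4941 on the lung and 1554 on the kidney side and 2269 widened genes. Under that matrix, like-level Eng (0.51), Fcmr (0.92), Irf1 (0.60), Col4a1 (0.61), Emilin1 (0.67), Irx2 (0.72) and Rplp1 (0.54) passed as higher in lung. A 1.5-fold limit left 1514 genes at like levels. Without fibrotic lungs 1 and 2, an alternative chosen after seeing the data, 1765 genes were called higher in lung and 958 widened. Leaving out 1 library at a time gave 4220 to 5635 calls, 1973 to 2731 on the lung and 2247 to 2904 on the kidney side, 3702 to 4594 like levels, 4613 to 5200 changed, 3098 to 3727 narrowed, 1106 to 1644 widened and 2683 to 3407 called the same way. With the replicate number as a block, a number that does not pair the organs, 5359 genes were called (2615 and 2744), 4461 were at like levels, 5049 changed, 3548 narrowed and 1377 widened. With the animal as a random block, at a consensus correlation of 0.0788, 5634 genes were called and 4630 were at like levels. In that fit 5357 changed, 3759 narrowed and 1477 widened. The cause of these changes was not tested. Probes near background limit low genes to bounds.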
